A study of Mus musculus with 2 samples.

Results

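Cycling Emx1+ progenitors of the embryonic mouse pallium were described from single-cell RNA counts of the corticoseptal boundary, the midline tissue between cortex and septum. Cells were barcodes that passed a minimum of unique molecular identifiers (UMIs, the count of distinct captured RNA molecules), a minimum of 500 genes and a ceiling of 10% on the mitochondrial share. The members were chosen by their own measured UMIs: a cell belonged when it held at least 4 UMIs of Top2a and Mki67 together, at least 1 UMI of Emx1, at most 2 of Eomes, none of Dlx2 or Gsx2 and at most 1 of Fgf8 and Fgf17 together. By this rule 727 of 19630 cells were members, 375 of 8964 in the wild-type library and 352 of 10666 in the Tcf4 cKO library. Those 8 genes chose the cells, so their levels are given below as a description only.

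The series held 1 library per genotype, both of embryonic stage E16.5. The first came from WT tissue and the second, Tcf4_cKO in the labels and Tcf4 cKO here, from Tcf4f/f;Emx1Cre tissue, in which Cre recombinase under the control of Emx1 acts on a floxed Tcf4 gene in the Emx1 lineage of the dorsal telencephalon. The labels give no further allele or agent, no number of embryos, and no exon between the loxP sites, and they do not say whether the WT embryos carried Cre or a floxed allele. With 1 library per genotype there is no replicate error and no test between genotypes. Every interval below is a 95% interval that covers counting error only, and a difference outside it is a difference between these 2 libraries.

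Radial glia are the neural stem cells that line the ventricle of the embryonic brain. Those of the pallium carry Emx1 and Pax6, divide at the ventricular surface, and give rise to glutamatergic neurons, mostly through Eomes+ intermediate progenitors, and later to astrocytes. Top2a, the topoisomerase that untangles replicated DNA, and Mki67, a protein that coats mitotic chromosomes, are made from S phase to mitosis and are close to absent in resting cells, so a rule that needs them finds dividing cells and passes over stem cells in early G1. TCF4 is an E protein, a basic helix-loop-helix factor that pairs with proneural factors such as NEUROG2 and is held inactive by the Id proteins.

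A set of 7 promoters, chosen after the values had been seen, is printed here because the cell cycle results and the metallothionein results below refer to these genes. Each is RefSeq sequence of build GRCm38.p6, from 250 bases before to 50 bases after the start of the gene, written 5′ to 3′ along the gene's strand. Of these, 3 belong to genes of the mitotic apparatus, and the capitals mark the cell cycle genes homology region (CHR, TTTGAA) and the CCAAT box, searched on both strands. They are those of Hmmr, a spindle assembly protein (chr11:40733388-40733687, minus strand), Plk1, the polo-like kinase of mitotic entry (chr7:122159185-122159484, plus strand), and Prc1, which bundles the microtubules of the central spindle (chr7:80294201-80294500, plus strand).
Hmmr: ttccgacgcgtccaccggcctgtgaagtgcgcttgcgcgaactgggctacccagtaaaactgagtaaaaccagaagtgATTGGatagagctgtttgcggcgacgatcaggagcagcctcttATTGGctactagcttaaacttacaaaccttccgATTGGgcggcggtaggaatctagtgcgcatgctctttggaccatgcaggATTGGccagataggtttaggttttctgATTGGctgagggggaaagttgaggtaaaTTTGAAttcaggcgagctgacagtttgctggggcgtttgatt
Plk1: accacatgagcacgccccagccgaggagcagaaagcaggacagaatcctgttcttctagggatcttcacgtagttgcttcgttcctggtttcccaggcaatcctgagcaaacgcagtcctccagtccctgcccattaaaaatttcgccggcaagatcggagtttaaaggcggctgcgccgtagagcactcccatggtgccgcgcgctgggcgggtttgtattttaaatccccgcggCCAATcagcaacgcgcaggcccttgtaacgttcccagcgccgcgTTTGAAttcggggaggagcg
Prc1: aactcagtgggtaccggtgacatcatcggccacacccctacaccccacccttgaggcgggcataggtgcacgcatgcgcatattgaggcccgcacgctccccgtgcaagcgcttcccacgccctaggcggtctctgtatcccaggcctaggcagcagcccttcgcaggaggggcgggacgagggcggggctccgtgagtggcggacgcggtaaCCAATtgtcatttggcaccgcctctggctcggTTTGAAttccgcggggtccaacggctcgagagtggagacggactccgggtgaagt

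The next promoter is that of Mcm3, a subunit of the replicative helicase (chr1:20820263-20820562, minus strand). Capitals mark E2F sites, searched on both strands as TTTCCCGC, TTTGGCGC, TTTGCCGC and TTTCGCGC, and 2 were found.
Mcm3: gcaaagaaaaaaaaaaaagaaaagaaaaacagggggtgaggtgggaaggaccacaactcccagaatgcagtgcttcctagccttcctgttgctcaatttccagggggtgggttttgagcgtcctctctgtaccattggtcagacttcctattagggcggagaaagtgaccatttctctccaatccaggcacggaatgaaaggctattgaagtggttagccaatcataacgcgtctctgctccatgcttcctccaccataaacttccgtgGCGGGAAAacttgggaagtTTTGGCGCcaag

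The last 3 belong to the metallothioneins, small proteins that bind zinc and copper. Mt1 (chr8:94178839-94179138), Mt2 (chr8:94172368-94172667) and Mt3 (chr8:94152357-94152656) lie on the plus strand. Capitals mark metal response elements (MRE, TGCACNC or TGCGCNC, both strands), of which Mt1 held 3, Mt2 held 4 and Mt3 held 1.
Mt1: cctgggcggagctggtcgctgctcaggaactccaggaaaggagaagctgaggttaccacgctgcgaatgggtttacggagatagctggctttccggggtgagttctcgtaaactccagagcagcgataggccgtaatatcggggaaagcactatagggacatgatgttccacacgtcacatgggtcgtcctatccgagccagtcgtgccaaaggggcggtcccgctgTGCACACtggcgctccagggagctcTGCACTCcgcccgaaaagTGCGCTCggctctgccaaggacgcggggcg
Mt2: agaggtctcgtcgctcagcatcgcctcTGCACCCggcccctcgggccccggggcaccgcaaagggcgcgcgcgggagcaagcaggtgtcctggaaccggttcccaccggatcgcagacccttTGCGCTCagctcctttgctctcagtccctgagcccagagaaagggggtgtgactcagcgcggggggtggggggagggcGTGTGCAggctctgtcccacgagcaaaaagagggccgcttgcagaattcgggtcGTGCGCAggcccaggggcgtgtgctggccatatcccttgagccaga
Mt3: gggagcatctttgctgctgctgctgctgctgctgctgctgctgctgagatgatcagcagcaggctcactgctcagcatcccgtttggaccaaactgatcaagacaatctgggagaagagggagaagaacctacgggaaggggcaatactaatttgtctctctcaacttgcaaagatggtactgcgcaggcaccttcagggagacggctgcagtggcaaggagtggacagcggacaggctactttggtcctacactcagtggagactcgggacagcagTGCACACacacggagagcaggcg

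Among 27025 RefSeq promoters of this length, counted once per symbol and without chromosome 18, the CHR motif was found in 18.1%, the CHR and a CCAAT box together in 7.12%, an E2F site in 2.32% and an MRE in 25.6%. The CHR was found in 20 of the 25 promoters matched for the spindle and cytokinesis list, and 16 of the 25 held a CCAAT box too. It was found in 11 of 22 promoters of mitotic kinases and cyclins, 9 of 19 of the kinetochore, 5 of 14 of origin licensing, 2 of 22 of the replication fork and 5 of 30 of the S phase list. The CCAAT box alone was found in 37.9% of all promoters, in 16 of 25 of the spindle list and in 21 of 30 of the S phase list. E2F sites were found in 8 of 14 promoters of the origin licensing list and in 11 of 30 of the S phase list, against 2 of 45 of the G2 and M list. No marked matches overlap in the printed promoters, and those of Hmmr hold the CCAAT box 5 times, each on the opposite strand (ATTGG as printed). A match is a description of these letters in this window, not a site shown to be used.

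The WT library held 116998498 UMIs and the Tcf4 cKO library 121321247, with medians of 9799.5 and 8306 UMIs per cell over all cells. The libraries shared 23 cell barcodes. Members were deeper than the average cell, at medians of 15311 UMIs and 4471 genes in WT and 14134 UMIs and 4215 genes in Tcf4 cKO. Scrublet called 19 WT and 23 Tcf4 cKO members doublets, and these were kept. Free RNA, read from droplets of 10 to 100 UMIs, was estimated from haemoglobin transcripts to make up 2.15% of the members' UMIs in WT and 1.09% in Tcf4 cKO.

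A total of 10 members carried large amounts of transcripts of other cell types. In WT, 7 cells held at least 10 UMIs of endothelial, mural or microglia markers or at least 100 of red-cell or of ependymal and choroid markers, and in Tcf4 cKO 3 cells did. A single Tcf4 cKO cell of 98993 UMIs held 430 endothelial, 161 mural and 1593 red-cell UMIs, and another held 205 microglia UMIs. A WT cell of 40858 UMIs held 2916 UMIs of ependymal and choroid markers. Levels are given as CPM, the UMIs of a gene over all UMIs of the population in that library, scaled to 1000000. The summed level of the 8 endothelial markers was 44.9 CPM in WT and 85.3 in Tcf4 cKO, and 11.9 and 6.92 without these cells. For the 8 microglia markers it was 1.81 and 39.7 CPM, and 1.70 and 2.43 without them. Results that rest on these cells are given with and without them below.

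The members made up 4.18% of WT cells (3.78 to 4.62, exact binomial interval) and 3.30% of Tcf4 cKO cells (2.97 to 3.66). Among all cells with 4 or more UMIs of Top2a and Mki67, which numbered 1287 in WT and 1360 in Tcf4 cKO, they made up 29.1% (26.7 to 31.7) and 25.9% (23.6 to 28.3). The remaining gates removed 671 and 788 cycling cells that lacked an Emx1 UMI, 166 and 143 for Eomes, 57 and 64 for Dlx2 or Gsx2, and 18 and 13 for Fgf8 and Fgf17. The difference in the share of all cells, 0.883 percentage points lower in Tcf4 cKO, moved with depth: it was -0.283 points among cells of at least 6700 UMIs, and -0.166 points when the rule was applied after every cell had been thinned at random to the minimum depth of a cell, which left 104 and 106 members. A share in a dissected and dissociated tissue also moves with what was dissected, which was not tested.

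The limits cut through a continuous range for Emx1 and through few cells for the cycling genes. The median member held 20 UMIs of Top2a and Mki67 in WT (range 4 to 93) and 21 in Tcf4 cKO (range 4 to 104). Just inside the cycling limit, 24 WT and 15 Tcf4 cKO members held exactly 4, and just outside it 30 and 19 cells held 3. For Emx1, 196 WT and 208 Tcf4 cKO members held the single UMI required, and 285 and 391 otherwise fitting cells held none. At the Eomes limit, 14 and 11 members held 2 UMIs and 15 and 8 cells held 3.

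The members carried the transcripts of radial glia beyond those the rule used. Pax6, the homeobox factor of pallial radial glia, had a UMI in 93.6% of WT members and 96.0% of Tcf4 cKO members, and in 56.5% and 63.6% after thinning each cell to the minimum depth. In cycling cells of the subpallium, which had at least 3 UMIs of Dlx2 and Gsx2 and no Emx1, the thinned shares were 17.2% and 13.2%, at median depths of 12385 and 10810 UMIs. In the cycling Eomes+ progenitors the thinned shares were 47.0% and 58.5%, and 95.4% and 93.2% without thinning. Pax6 alone therefore does little to set the members apart from those progenitors. Slc1a3, the glial glutamate transporter, reached the 3 UMIs that mark the non-cycling glia in 329 of 375 WT and 270 of 352 Tcf4 cKO members. Fabp7, the brain fatty acid binding protein of radial glia, stood at 5284 CPM in WT members and 3822 in Tcf4 cKO members, against 844 and 1285 in cycling Eomes+ progenitors and 671 and 1019 in the cycling subpallial cells. Sox2, the stem cell factor, stood at 597 and 586 CPM in members. Its thinned shares were 82.7% and 83.8% in members, 54.3% and 67.8% in cycling Eomes+ progenitors and 72.1% and 75.4% in the cycling subpallial cells. Dlx1, a subpallial factor and the chromosomal neighbour of Dlx2, stood at 3.63 and 3.28 CPM, against 813 and 781 in the cycling subpallial cells. Members could hold no UMI of Dlx2 or Gsx2 and the subpallial cells had to hold them, so the Dlx1 contrast is a description only. Leaving Dlx1 aside, these markers go with the label of radial glia in both libraries, and the members with a Neurog2 UMI are described last.

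**Figure D1:**
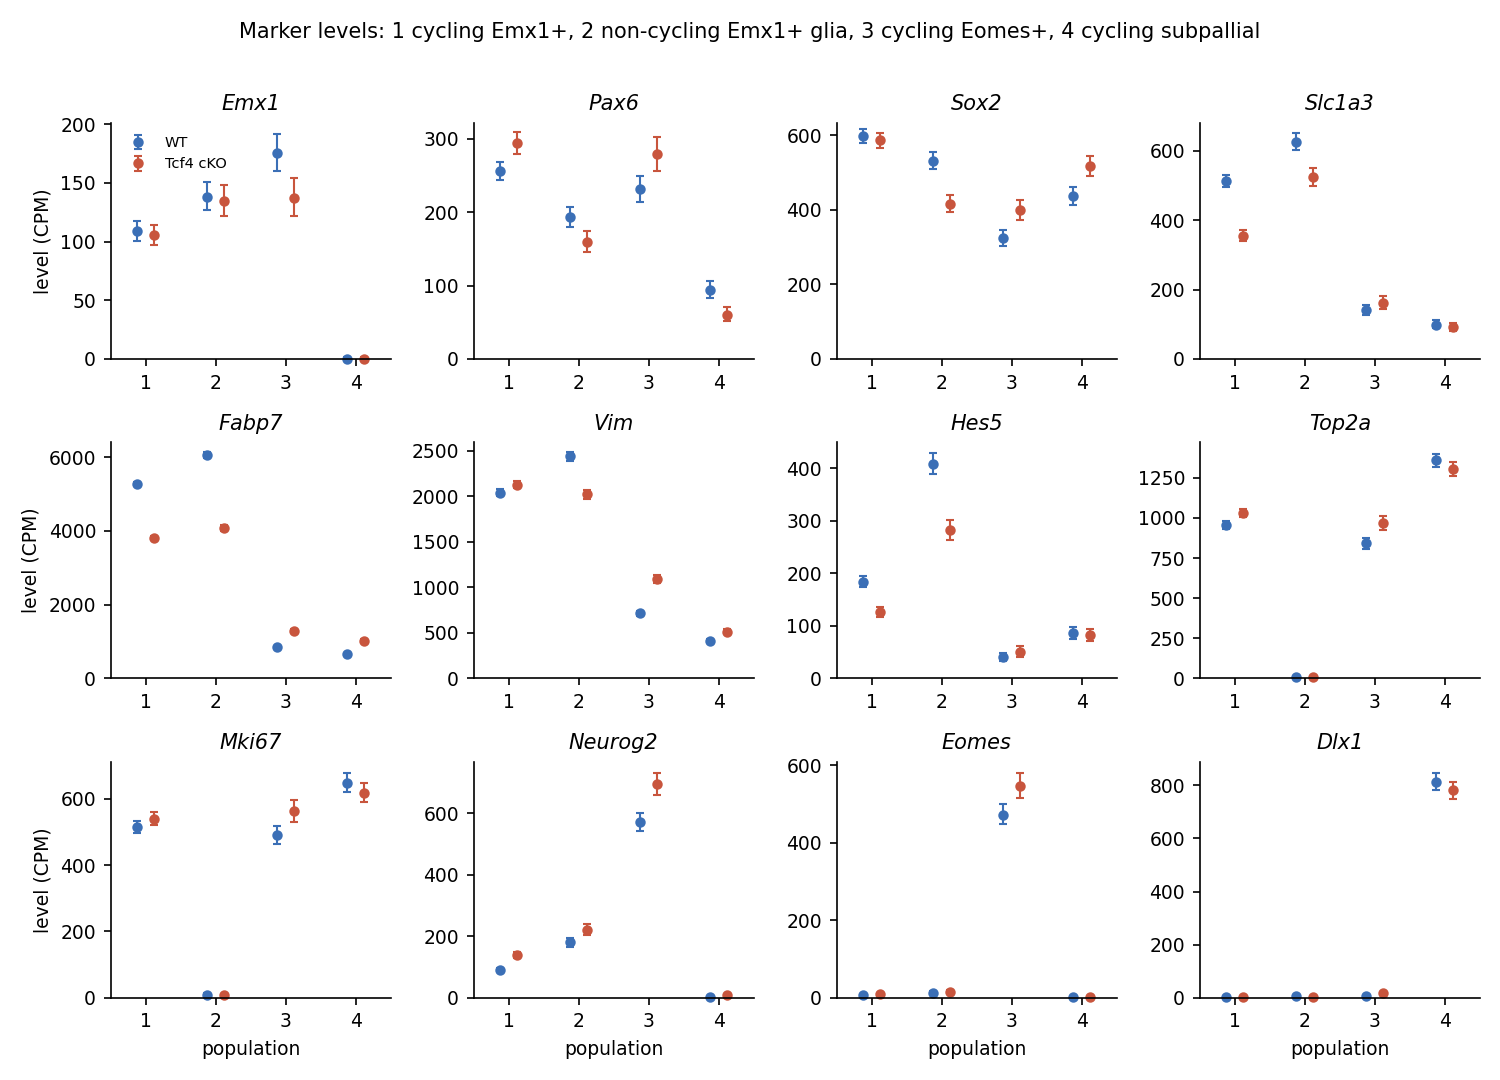
Levels of 12 genes (CPM, linear axes from 0) in 4 populations of the WT and Tcf4 cKO libraries, with 95% exact Poisson intervals; population 1 is the cycling Emx1+ cells. Fabp7, Vim and Slc1a3 are highest in populations 1 and 2, Eomes is high in population 3 and Dlx1 in population 4. Emx1, Eomes, Top2a, Mki67 and, for population 2, Slc1a3 helped to choose the cells, as did Dlx2 and Gsx2, which are not drawn.

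The cell cycle itself sets the members apart from the non-cycling Emx1+ glia, 332 WT and 288 Tcf4 cKO cells that had at least 3 UMIs of Slc1a3, at most 1 of Top2a and Mki67 and otherwise met the same limits. The rule split the cells on 2 genes of the cycle and required Slc1a3, a glial gene, of the non-cycling cells only. This contrast therefore describes what was selected and tests nothing. A gene was counted as past the fold limit when its ratio, with 5 CPM added to both levels, reached 1.5. In WT 6.12% of 12043 genes with at least 20 UMIs were past it upward and 6.21% downward; in Tcf4 cKO these were 7.54% and 10.7% of 11714. The non-cycling cells of the Tcf4 cKO library carried more neuron transcripts: the 16 glutamatergic neuron genes summed to 3365 CPM there and to 1431 in WT, against 660 CPM in WT members and 800 in Tcf4 cKO members. When the non-cycling glia were limited to at most 3 UMIs of 4 neuron genes, an alternative chosen after the data had been seen, 622 genes were lower in the Tcf4 cKO members in place of 1255.

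Mitotic genes differed most. All 29 genes of the spindle and cytokinesis list were past the limit upward in both libraries, with median log2 ratios of 3.39 in WT and 3.64 in Tcf4 cKO, as were all 28 mitotic kinases and cyclins (2.76 and 2.97). Hmmr stood at 3.12 CPM in WT non-cycling glia and 206 in WT members, and at 1.64 and 213 CPM in Tcf4 cKO. Plk1 stood at 1.04 and 115 CPM in WT and at 1.64 and 133 in Tcf4 cKO. Prc1 stood at 16.4 and 677 CPM in WT and at 11.8 and 765 in Tcf4 cKO, which are ratios of 41.3 (32.2 to 53.9) and 64.8 (46.7 to 92.6). These are the 3 genes whose promoters are printed above with both the CHR and the CCAAT box. Nusap1, which binds spindle microtubules near chromatin, went from 4.42 to 407 CPM in WT and from 6.56 to 432 in Tcf4 cKO, and Ube2c, the ubiquitin-conjugating enzyme that serves the anaphase-promoting complex, from 23.4 to 842 and from 26.9 to 1046. Of the 23 kinetochore genes, 22 in WT and 23 in Tcf4 cKO were past the limit; Spc25, a subunit of the NDC80 complex, stood 60.8-fold and 59.2-fold higher in members.

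Genes of DNA replication were higher too, by less. Of 26 replication fork genes 23 were past the limit in both libraries, with medians of 1.02 and 1.08 on the log2 scale. The 19 origin licensing genes were all higher in both, 9 past the limit in WT and 10 in Tcf4 cKO, with medians of 0.57 and 0.67. Mcm3 stood at 123 CPM in non-cycling glia and 154 in members of the WT library, a ratio of 1.25 (1.12 to 1.40), and at 107 and 150 CPM in Tcf4 cKO. Dbf4, the activating subunit of the kinase that fires origins, differed more, at 17.4 and 164 CPM in WT and 17.7 and 172 in Tcf4 cKO. Replication-dependent histones were among the leading genes: Hist1h1b went from 22.9 to 747 CPM in WT and from 20.3 to 631 in Tcf4 cKO, and Hist1h2ap from 4.68 to 309 and from 5.91 to 269.

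Outside these lists, the genes highest in members over non-cycling glia in both libraries still belonged to division and DNA handling. Cep55, which acts in the last cut between daughter cells, stood at 1.30 and 62.8 CPM in WT and at 0.656 and 63.4 in Tcf4 cKO. Melk, a kinase of dividing progenitors, stood at 4.68 and 91.5 CPM in WT and at 3.28 and 92.8 in Tcf4 cKO. Neil3, a DNA glycosylase, went from 3.12 to 63.8 CPM in WT and from 2.30 to 72.4 in Tcf4 cKO. In the list of microcephaly, spindle pole and centriole genes, 21 of 21 were higher in WT members and 18 of 21 in Tcf4 cKO members, with 16 past the limit in each library. Aspm was 25.3-fold and 24.9-fold higher in members, whereas Pafah1b1, known for lissencephaly, stood at 313 and 318 CPM in WT and at 366 and 334 in Tcf4 cKO.

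Among the genes named as lower in the dividing cells were Hes5, Aldoa, Rspo3 and Neurog2. Hes5, a Notch target, stood at 409 CPM in WT non-cycling glia and 184 in WT members, a ratio of 0.449 (0.416 to 0.485), and at 282 and 127 CPM in Tcf4 cKO, a ratio of 0.450 (0.406 to 0.498). Cdkn1c, an inhibitor of cyclin-dependent kinases, stood at 72.5 and 32.7 CPM in WT and at 81.1 and 34.6 in Tcf4 cKO. Aldoa, a glycolytic aldolase, stood at 180 and 57.7 CPM in WT and at 149 and 62.3 in Tcf4 cKO. Rspo3, a secreted amplifier of Wnt signals, was 0.350 and 0.290 times its level in non-cycling glia. The astrocyte maturation list had 15 of 18 genes lower in WT and 14 of 17 in Tcf4 cKO, with medians of -0.49 and -0.33. Of all genes, 6949 of 12043 were lower in WT and 6570 of 11714 in Tcf4 cKO. Only the non-cycling glia were chosen on Slc1a3, so these glial counts are a description. Neurog2, the proneural factor, was lower in members in both, at 180 and 90.2 CPM in WT and 222 and 139 in Tcf4 cKO, though the WT difference turned to a log2 ratio of 0.60 under the rule after thinning.

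**Figure D2:**
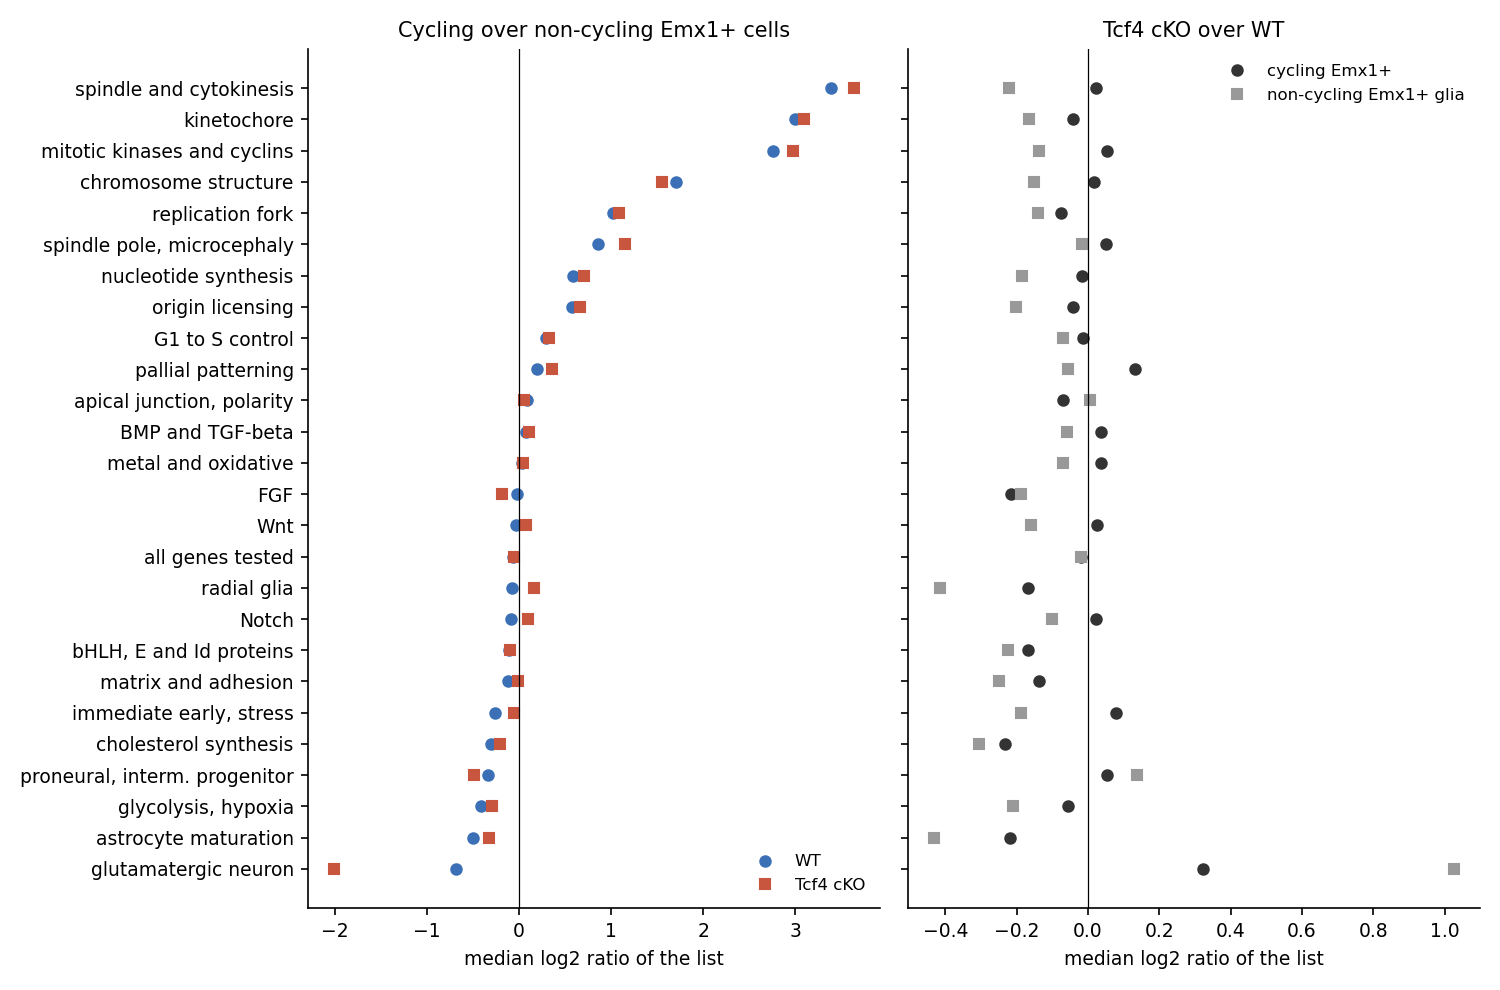
Median log2 ratio of each gene list: on the left, cycling over non-cycling Emx1+ cells in the WT and Tcf4 cKO libraries; on the right, Tcf4 cKO over WT within the cycling and the non-cycling cells. The cell cycle lists reach medians of 3.39 and 3.64 on the left and stay near 0 for the cycling cells on the right, where the FGF, cholesterol and astrocyte maturation lists lie near -0.2.

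The phase of the cycle was read from the UMIs of an S list of 42 genes and a G2 and M list of 51 genes, neither of which held Top2a or Mki67. After thinning, 318 of 375 WT members (84.8%, 80.8 to 88.3) and 297 of 352 Tcf4 cKO members (84.4%, 80.2 to 88.0) held more G2 and M than S UMIs; without thinning the shares were 82.4% and 84.1%. The shares in the cycling Eomes+ progenitors, 84.8% and 88.1%, and in the cycling subpallial cells, 86.5% and 86.0%, had intervals that overlap these. In the non-cycling glia, at far fewer UMIs of these lists, the thinned shares were 64.2% in WT and 67.4% in Tcf4 cKO. A lead of G2 and M UMIs is thus not by itself a sign of phase. The rule needed UMIs of Top2a and Mki67, so leaving both out of the lists does not free the share from the rule. The 2 lists differ in size and level, so the share is a range on a score and not a fraction of time spent in a phase, and 19 WT and 9 Tcf4 cKO members lay within 2 UMIs of the dividing line. The free RNA share differed between the libraries, as given above, and its part in these calls was not tested.

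**Figure D3:**
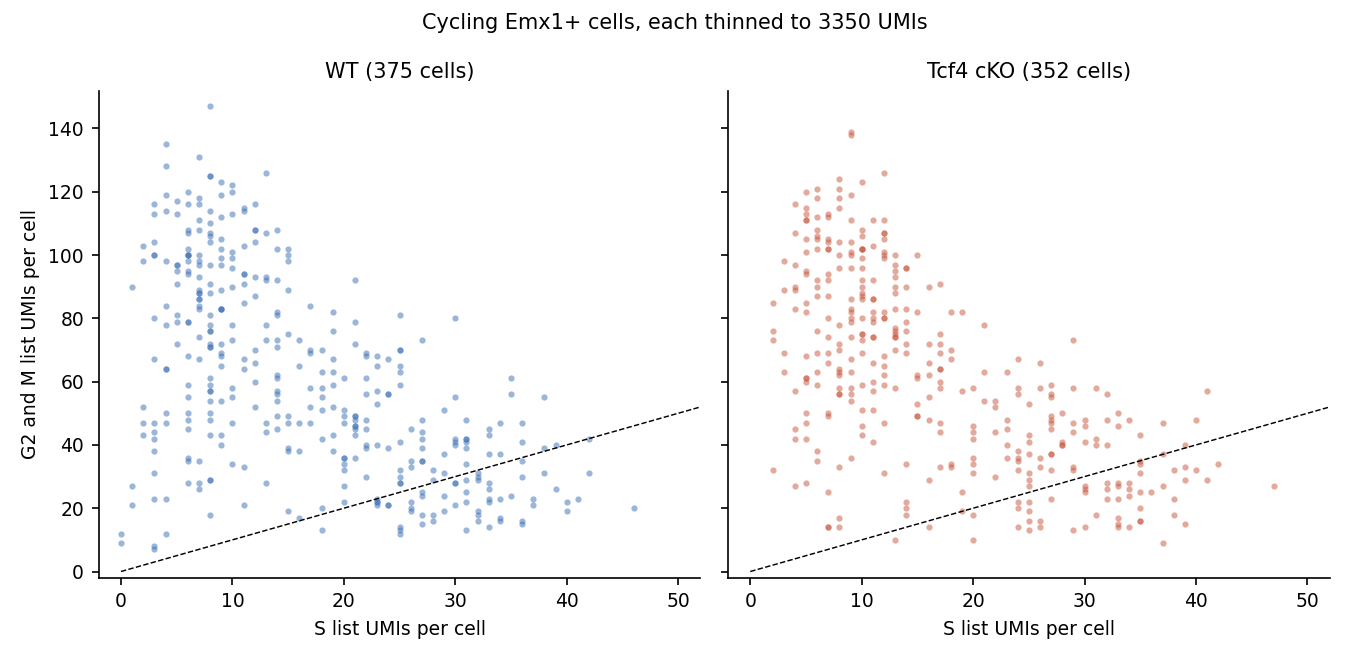
UMIs of the S list (x axis) and of the G2 and M list (y axis) per cycling Emx1+ cell, each thinned to the minimum depth of a cell, with 375 WT and 352 Tcf4 cKO cells; the dashed line marks equal numbers. Most cells of both libraries lie above the line, 318 in WT and 297 in Tcf4 cKO, and the cells rich in S UMIs form a group near or below it.

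Genes that neither phase list held followed the split in both libraries. Ccnb1, the cyclin of mitotic entry, stood at 20.5 CPM in the S-leading and 286 in the G2 and M-leading WT members, and at 17.9 and 343 CPM in Tcf4 cKO. Aspm stood at 33.7 and 224 CPM in WT and at 31.4 and 230 in Tcf4 cKO. Conversely Mcm3 stood at 430 and 108 CPM in WT and at 372 and 117 in Tcf4 cKO, and Cdt1, the licensing factor destroyed after origins fire, at 92.7 and 24.6 in WT and 92.7 and 20.1 in Tcf4 cKO. Pax6 differed less, at 226 and 260 CPM in WT and 274 and 297 in Tcf4 cKO. Emx1 stood at 112 and 108 CPM in WT and 114 and 104 in Tcf4 cKO. Every member had to hold an Emx1 UMI, so the Emx1 levels are a description only. Aldoc, an aldolase of glia, was higher in the S-leading members, at 499.6 and 252 CPM in WT and 513 and 268 in Tcf4 cKO.

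Between the genotypes, the number of genes that differed in the members moved with the setting. Of 12058 genes with at least 20 UMIs, 80 (0.663%) were past the 1.5-fold limit upward in Tcf4 cKO and 151 (1.25%) downward, and the median log2 ratio over all of them was -0.02. Without the 10 members that held other cells' transcripts, a choice made after the data had been seen, the count of higher genes was 52. With a pseudocount of 1 CPM the counts were 292 higher and 515 lower, and with each member thinned 247 and 422. In the non-cycling Emx1+ glia 4.34% of 11549 genes were higher and 3.02% lower, in cycling Eomes+ progenitors 2.35% and 2.69% of 10307, and in cycling subpallial cells 1.86% and 1.13% of 10580. These populations hold from 118 to 332 cells per library, fewer than the members, so the shares are given as background and were not compared with each other.

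The targeted gene was lower but far from absent. Tcf4 stood at 1988 CPM in WT members (1952 to 2024) and 1243 in Tcf4 cKO members (1214 to 1273), a ratio of 0.625 (0.607 to 0.644). It was found in 100% of WT and 99.4% of Tcf4 cKO members, and in 98.4% and 95.7% after thinning. The ratio was 0.757 in the non-cycling glia, 0.730 in the cycling Eomes+ progenitors and 0.855 in the cycling subpallial cells, which had no Emx1 UMI. The kit tags the 3′ end of transcripts, and a transcript with an internal exon removed can still be counted there. These values therefore do not measure how much of the gene was recombined.

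None of the cell cycle lists held a gene past the 1.5-fold limit between genotypes in the members, against 0.663% of all 12058 genes upward and 1.25% downward. Members of both libraries had to pass the same limit on Top2a and Mki67, which favours similar levels of cycle genes. These values therefore do not show whether the cycle differs between genotypes. The median log2 ratio was 0.02 for the spindle list, 0.05 for mitotic kinases and cyclins, -0.04 for the kinetochore and -0.08 for the replication fork, where 21 of 26 genes were lower. Of all 12058 genes, 6554 were lower. The same 26 genes were mostly lower elsewhere too: 21 in non-cycling glia, 25 in cycling Eomes+ progenitors and 20 in cycling subpallial cells. All genes lower there were, in that order, 6081 of 11549, 5124 of 10307 and 5670 of 10580. Top2a and Mki67, on which the members were chosen, stood at 958 and 515 CPM in WT and 1030 and 539 in Tcf4 cKO. Of the G1 cyclins, Ccnd2 stood at 626 CPM in WT and 710 in Tcf4 cKO, a ratio of 1.13 (1.08 to 1.19), and Ccnd1 at 43.4 and 32.6, a ratio of 0.752 (0.619 to 0.913). In cycling Eomes+ progenitors Ccnd2 went the other way, from 888 to 543 CPM.

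Neural identity of the members was similar in the 2 libraries for the patterning genes and lower in Tcf4 cKO for part of the radial glial genes. Among 25 pallial patterning genes 17 were higher, with a median of 0.13 on the log2 scale (-0.05 in S-leading cells), and 1 was past the limit, the nuclear receptor gene Nr2f2, which rests on 3 UMIs in WT and 22 in Tcf4 cKO. The patterning list holds Emx1, which the rule required. Lhx2, a selector of cortical identity, stood at 615 CPM in WT and 647 in Tcf4 cKO, and Emx2 at 117 and 124. Of 27 radial glial genes 20 were lower, with a median of -0.17 that was 0.02 under the rule after thinning, and 4 were past the limit, all downward: Sox1, Ptprz1, Tnc and Ednrb. Of all 12058 genes 5504 were higher and 6554 lower, with 0.663% past the limit upward and 1.25% downward. Ptprz1, a receptor phosphatase of radial glia that binds pleiotrophin and tenascins, stood at 901 CPM (877 to 925) in WT and 548 (528 to 568) in Tcf4 cKO, a ratio of 0.608. Tnc, tenascin C of the extracellular matrix, stood at 187 (176 to 198) and 102 CPM (93.6 to 111), a ratio of 0.546. Vim, the intermediate filament vimentin, and Sox9, a glial fate factor, differed little, at 2042 and 2129 CPM and at 494 and 484 CPM.

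Genes of later astrocytes were mostly lower too. In the astrocyte maturation list 14 of 18 genes were lower in Tcf4 cKO members, with a median of -0.22, and 4 were past the limit, all downward. Of all 12058 genes 6554 were lower, and 1.25% were past the limit downward. Aldh1l1, a folate enzyme that marks astrocytes, stood at 40.6 CPM in WT and 10.2 in Tcf4 cKO, a ratio of 0.252 (0.185 to 0.338), and at 69.9 and 30.5 in the non-cycling glia. Slc1a2, the second glial glutamate transporter, stood at 154 and 71.6 CPM, a ratio of 0.466 (0.413 to 0.525). Both Aldh1l1 and Slc1a2 were lower in the S-leading and in the G2 and M-leading members, with ratios of 0.334 and 0.245 for Aldh1l1 and 0.555 and 0.451 for Slc1a2. Nfia and Nfib, the factors of gliogenesis, stood at 870 and 811 CPM and at 1781 and 1768 CPM.

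The oligodendrocyte lineage factors Olig1 and Olig2 were lower as well, at 39.4 and 19.7 CPM for Olig1, a ratio of 0.499 (0.394 to 0.629), and at 22.1 and 7.47 CPM for Olig2, a ratio of 0.338 (0.232 to 0.483). Markers of oligodendrocyte precursors, a list of 8 that holds both genes, summed to 75.2 CPM in WT and 44.1 in Tcf4 cKO members, with Gpr17 at 0 in WT. Whether a few precursor cells contribute was not tested.

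Over all genes, in the lists or not, the rule for naming took those whose ratio bound lay farthest from 1. Fgfbp3, which releases FGFs from the matrix, led the lower side at 407 CPM (391 to 424) in WT and 160 (150 to 171) in Tcf4 cKO, 2.54-fold (2.35 to 2.75) lower. It had a UMI in 92.5% of WT members and 77.6% of Tcf4 cKO members, and in 64.8% and 38.1% after thinning; in the cycling subpallial cells the thinned shares were 6.51% and 11.8%. Nkain4, a protein that interacts with the sodium pump, stood at 66.3 and 24.2 CPM. Veph1, a membrane-bound protein with a pleckstrin homology domain, stood at 50.3 and 18.0 CPM, and Ptx3, a pentraxin that overlaps the same stretch of chromosome 3 (Veph1 at 66053558 to 66296837, Ptx3 at 66219910 to 66225805, GRCm38), at 50.6 and 21.0. Reads from the overlap of these genes could be shared by the counting. Bcl2, the inhibitor of apoptosis, stood at 98.0 and 57.8 CPM.

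The FGF list as a whole had 15 of 18 genes lower in Tcf4 cKO members, with a median of -0.22. Of all 12058 genes 6554 were lower, and 1.25% were past the limit downward. In the FGF list those past the limit were Fgfbp3, Spry2, an inhibitor that FGF signals induce (47.3 and 27.7 CPM, ratio 0.585, 0.478 to 0.715), and Etv4, an ETS factor induced by FGF (29.8 and 17.5 CPM, ratio 0.586, 0.453 to 0.755). The receptors differed less: Fgfr1 stood at 134 and 112 CPM, Fgfr2 at 23.9 and 23.3 and Fgfr3 at 21.4 and 21.7. The markers of the commissural plate, 6 genes that hold Etv4, Spry4 and the FGF ligands the rule limited, summed to 213 CPM in WT and 147 in Tcf4 cKO. Part of that list was set by the gate, and its part in the FGF values was not tested.

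Cholesterol synthesis genes were lower together by small amounts. Of 24 genes 21 were lower in Tcf4 cKO members, with a median of -0.23 and none past the limit, though the median was 0.01 under the rule after thinning. Of all 12058 genes 6554 were lower, and 1.25% were past the limit downward. Hmgcs1, at the entry of the pathway, stood at 451 and 306 CPM, a ratio of 0.678 (0.638 to 0.721). Idi1, the isopentenyl isomerase, had a ratio of 0.727 (0.669 to 0.791). Summed over the list the level was 2546 CPM in WT and 2080 in Tcf4 cKO members, and 3219 and 2473 in the non-cycling glia.

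The metallothioneins split by gene. Mt1 stood at 191 CPM (180 to 202) in WT members and 395 (379 to 412) in Tcf4 cKO members, a ratio of 2.07 (1.93 to 2.23), and Mt2 at 151 (142 to 161) and 233 (220 to 246), a ratio of 1.54 (1.41 to 1.68). Mt3, the isoform of brain and of astrocytes, went the other way, from 686 (665 to 707) to 330 CPM (315 to 345), a ratio of 0.481 (0.454 to 0.508). The 3 genes are neighbours on chromosome 8, Mt3 at 94152607 to 94154146, Mt2 at 94172664 to 94173568 and Mt1 at 94179082 to 94180327 (GRCm38), and their printed promoters hold 1, 4 and 3 MREs in that order. A Mt1 UMI was found in 42.7% of thinned WT members and 67.3% of thinned Tcf4 cKO members (74.7% and 95.2% without thinning), against 4.19% and 13.2% in the cycling subpallial cells. Mt1 was higher in every population, with ratios of 1.37 in the non-cycling glia, 3.86 in the cycling Eomes+ progenitors and 2.92 in the cycling subpallial cells, and in free RNA it stood at 89.8 and 143 CPM. The lower Mt3 was seen in the non-cycling glia (ratio 0.502) and not in the cycling Eomes+ progenitors (1.03) or the cycling subpallial cells (1.72). In the metal and oxidative defence list, 10 of 18 genes were higher and 8 lower, against 5504 and 6554 of all 12058 genes. Besides the metallothioneins 1 was past the limit, Gstm1, a glutathione transferase, at 47.7 and 28.1 CPM, a ratio of 0.589 (0.481 to 0.719). The zinc exporter gene Slc30a1 stood at 14.7 and 14.8 CPM and Gclm, of glutathione synthesis, at 73.9 and 84.4.

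Colec12, a scavenger receptor with a collectin domain, was the most different gene of all that were named. It had 8 UMIs in 375 WT members and 334 UMIs in 352 Tcf4 cKO members, 1.32 CPM (0.570 to 2.60) and 60.9 CPM (54.5 to 67.8), a ratio of 46.1 (23.2 to 108). The Tcf4 cKO UMIs were spread over 199 cells with at most 5 in any of them. The same difference was present in every population, at 2.34 and 77.5 CPM in the non-cycling glia, 1.09 and 61.9 in the cycling Eomes+ progenitors and 0.345 and 65.1 in the cycling subpallial cells. Free RNA held 6.59 CPM in WT and 59.6 in Tcf4 cKO. With free RNA subtracted, the log2 ratio in the members was 3.41, against 3.38 without the subtraction. The difference was thus not particular to the members. Colec12 lies on chromosome 18 at 9707595 to 9882644 (GRCm38), the chromosome that also holds Tcf4.

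The proneural factor Neurog2 was higher in Tcf4 cKO members. It stood at 90.2 CPM (82.8 to 98.1) in WT and 139 (129 to 149) in Tcf4 cKO, a ratio of 1.54 (1.38 to 1.72). Its log2 ratio of 0.60 was 0.01 under the rule after thinning and 0.17 in S-leading members. Of 21 proneural and intermediate progenitor genes 13 were higher and 8 lower, 2 of them past the limit upward, and the list's median of 0.05 was near that of all genes. Among all 12058 genes 5504 were higher and 0.663% were past the limit upward. Hes6, which opposes HES1, stood at 52.8 and 72.5 CPM, a ratio of 1.37 (1.18 to 1.60), whereas the Notch ligand Dll1 stood at 17.6 and 16.8. In the non-cycling glia Neurog2 stood at 180 and 222 CPM, a ratio of 1.23. Nr4a2, a nuclear receptor, stood at 27.4 and 51.6 CPM, Nrg1, a ligand of ERBB receptors, at 55.6 and 85.5 (0.04 on the log2 scale in S-leading members), and Pou3f2, a POU factor of upper layer fate, at 136 and 184. Pou3f2 was lower under the rule after thinning, at -0.09 on the log2 scale.

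Among the E and Id proteins, the partners of TCF4 differed little and the Id genes differed by member. Tcf3 stood at 170 CPM in WT and 178 in Tcf4 cKO members, and Tcf12 at 134 and 141. Id3 stood at 440 and 303 CPM, a ratio of 0.688 (0.647 to 0.731), Id4 at 313 and 239, a ratio of 0.763 (0.711 to 0.819), and Id2 at 211 and 173, a ratio of 0.823 (0.756 to 0.896). Id1 stood at 196 and 214 CPM, a ratio of 1.10 (1.01 to 1.19). Hes5 had a ratio of 0.690 (0.626 to 0.759), and 0.689 in the non-cycling glia, where it stood at 409 and 282 CPM.

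In the Wnt list 13 of 26 genes were higher and 13 lower, against 5504 and 6554 of all 12058 genes. Fzd8, a Wnt receptor, stood at 18.3 and 33.4 CPM, a ratio of 1.82 (1.43 to 2.33), Rspo1 at 13.2 and 22.8 and Rspo2 at 3.13 and 8.93, all past the limit upward. Wnt7b, a ligand, stood at 11.7 and 3.46 CPM, a ratio of 0.296 (0.168 to 0.496), past it downward. Of the stress and immediate early list, Atf3 stood at 7.59 and 24.97 CPM and Zfp36 at 2.80 and 9.11 CPM, but without the cells that held other types' transcripts they stood at 7.47 and 9.35 and at 2.55 and 3.37. Likewise the basement membrane collagen Col4a1 stood at 10.7 and 18.6 CPM with those cells and at 8.32 and 4.11 without them. The 30 genes named by the rule all kept their direction when those cells, 7 in WT and 3 in Tcf4 cKO, were left out. They had been chosen for their extreme ratios in the same members, so a change of direction was unlikely from the start.

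Of these 30 genes, 28 had the same direction in the non-cycling glia, 23 in the cycling Eomes+ progenitors and 24 in the cycling subpallial cells. The share of all genes with the same direction was not counted, so these counts have no background. All populations come from the same 2 libraries, and a difference between whole libraries would appear in each of them. The exceptions in the non-cycling glia were Tagln2, an actin-binding protein (67.9 and 66.0 CPM, against 156 and 218 in members), and Tuba1c, an alpha-tubulin that was high in the G2 and M-leading members (5.20 and 3.61 CPM, against 68.4 and 96.1). Jun, an immediate early factor, was 1.20 times its WT level in Tcf4 cKO members and 0.745 times in the non-cycling glia. The gene Fabp7 was lower in Tcf4 cKO members, with a ratio of 0.723 (0.711 to 0.736), and higher in Tcf4 cKO cycling Eomes+ progenitors, with a ratio of 1.52. Ptprz1 and Ednrb, the endothelin receptor of glia, did the same, with ratios of 0.608 and 1.21 and of 0.650 and 1.70.

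**Figure D4:**
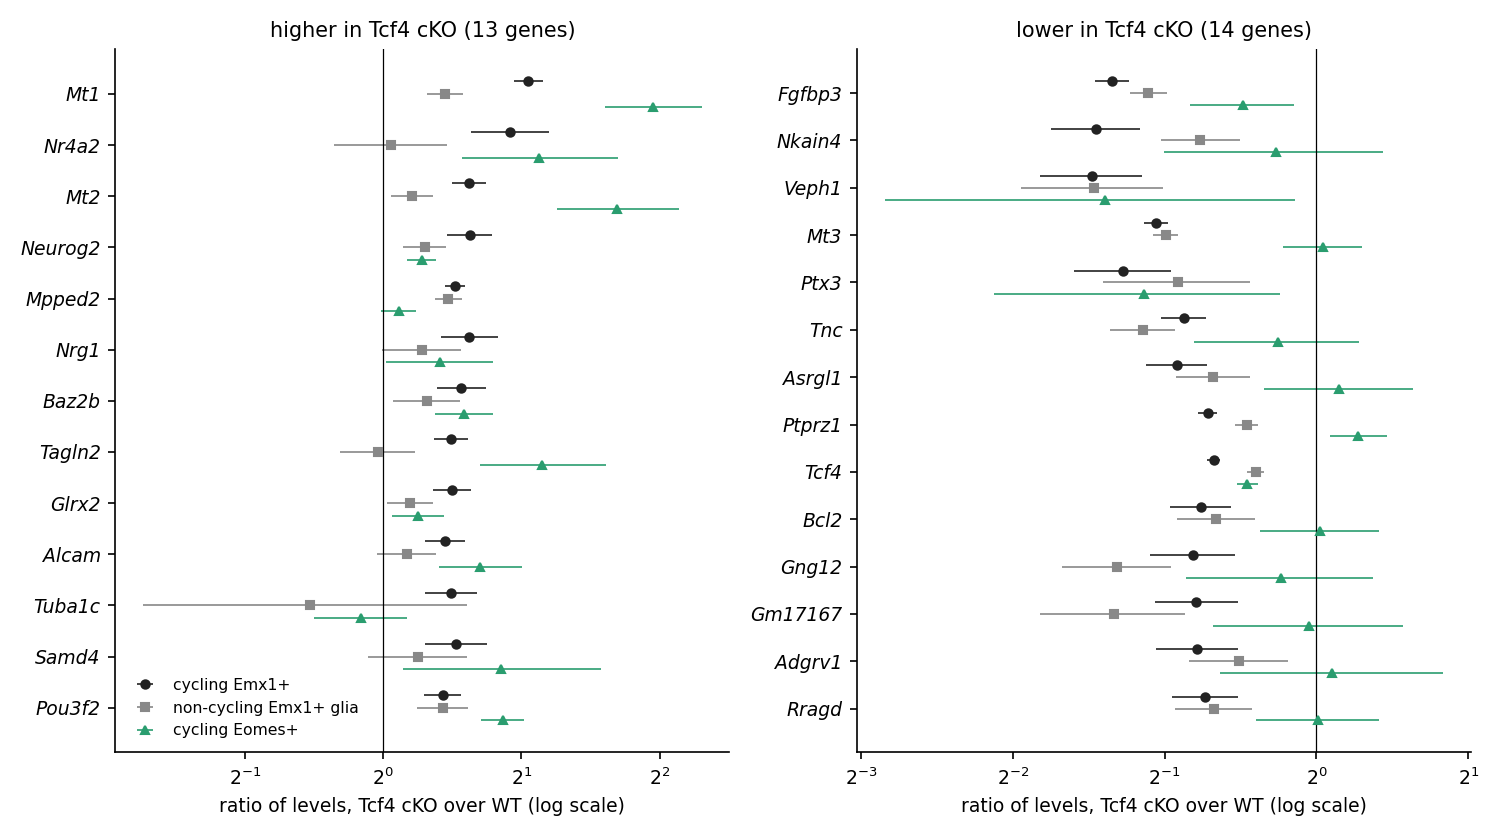
Ratio of levels, Tcf4 cKO over WT (log axis), with 95% exact intervals, for genes named by rule in the cycling Emx1+ cells, in the non-cycling Emx1+ glia and in cycling Eomes+ progenitors; Colec12 is off the scale at 46.1 and not drawn. The genes were chosen for their ratios in the cycling Emx1+ cells. Most lower genes are lower in the non-cycling Emx1+ glia too, while several, Ptprz1, Mt3 and Bcl2 among them, are above 1 in the cycling Eomes+ progenitors. Mt1 and Mt2 are above 1 in all 3.

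The members were also split by whether they held a Neurog2 UMI, since Neurog2 acts in progenitors on the way to neurons. After thinning, 51 of 375 WT members (13.6%, 10.3 to 17.5) and 83 of 352 Tcf4 cKO members (23.6%, 19.2 to 28.4) held one, and 34.4% and 52.3% did without thinning. The thinned share was 0.930% and 1.75% in the cycling subpallial cells, which should lack the gene, and 64.2% and 77.1% in the cycling Eomes+ progenitors, at median depths of 16906 and 15399 UMIs. The Neurog2+ and Neurog2- members had similar depths, with medians of 16383 and 15241.5 UMIs in WT and 13878 and 14179 in Tcf4 cKO.

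The Neurog2+ members carried several, but not all, other genes of neurogenic commitment at higher levels in both libraries. Insm1, a zinc finger factor of delaminating progenitors, stood at 50.8 CPM (44.9 to 57.3) in Neurog2- and 232 (200 to 266) in Neurog2+ WT members, and at 54.2 (47.4 to 61.7) and 205 (181 to 232) in Tcf4 cKO. Gadd45g, which marks cells leaving the cycle, stood at 16.7 and 70.9 CPM in WT and at 13.8 and 63.5 in Tcf4 cKO. Dll1 stood at 12.1 and 52.0 CPM in WT and at 9.03 and 42.3 in Tcf4 cKO. Eomes, which the rule held to 2 UMIs, stood at 4.22 and 30.7 CPM in WT and at 5.70 and 21.9 in Tcf4 cKO. Neurod1 was higher with Neurog2 in WT, at 21.8 and 39.0 CPM, and not in Tcf4 cKO, at 30.2 and 29.0. The neuron gene Tubb3 stood at 90.6 and 102 CPM in WT, with overlapping intervals, and was lower with Neurog2 in Tcf4 cKO, at 128 and 79.9. Part of the genes of the glial state were lower in the Neurog2+ members of both libraries. Hes1 stood at 173 and 95.7 CPM in WT and at 154 and 108 in Tcf4 cKO. Id3 stood at 471 and 254 and at 331 and 212, and Fabp7 at 5608 and 3280 and at 4064 and 3023. Sox2, Sox9 and Slc1a3 were lower with Neurog2 in WT, at 614 and 495, 514 and 371, and 543 and 324 CPM. In Tcf4 cKO their intervals overlapped, at 585 and 589, 492 and 457, and 361 and 334 CPM. Vim did not follow, at 2054 and 1969 CPM in WT and 2102 and 2218 in Tcf4 cKO. Pax6 was higher with Neurog2 in WT, at 248 and 303 CPM, and stood at 289 and 310 in Tcf4 cKO. Within the Neurog2+ members, Insm1, Gadd45g and Dll1 had overlapping intervals between the libraries, and Tcf4 itself stood at 2181 and 1300 CPM.

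**Figure D5:**
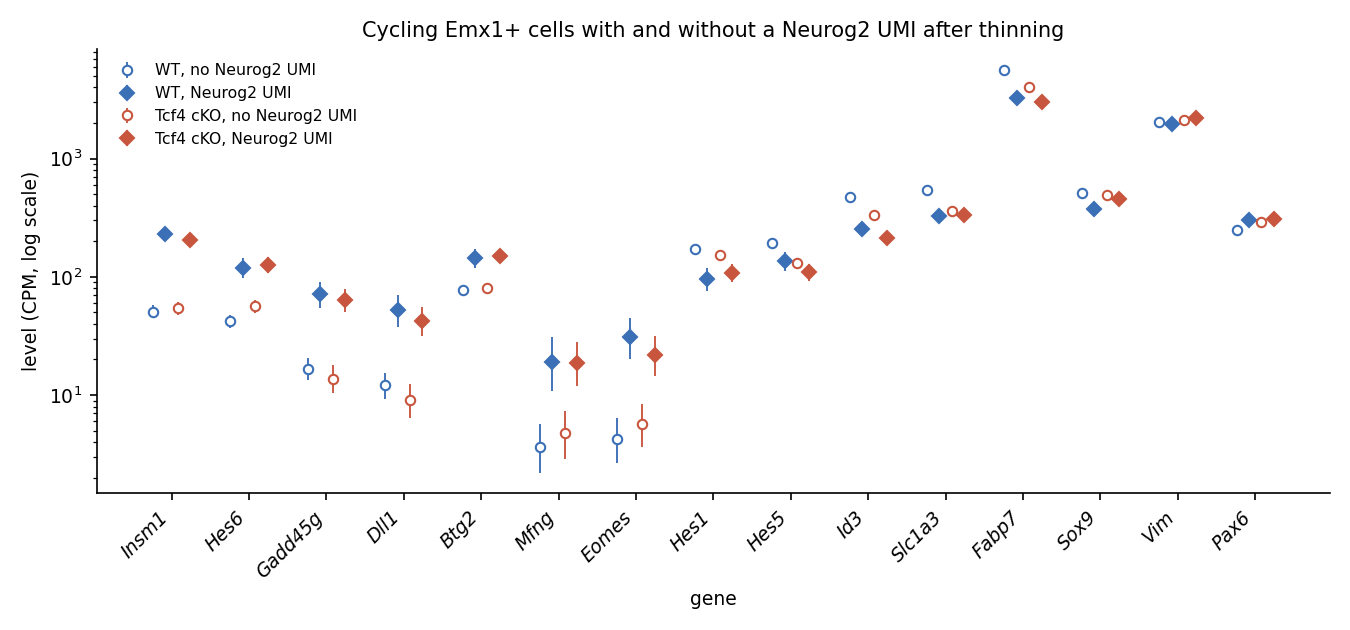
Levels (CPM, log axis) with 95% exact Poisson intervals of 15 genes in cycling Emx1+ cells with and without a Neurog2 UMI after thinning, 51 and 324 WT cells and 83 and 269 Tcf4 cKO cells. Insm1, Hes6, Gadd45g, Dll1, Btg2, Mfng and Eomes are higher with Neurog2 in both libraries, and Hes1, Id3 and Fabp7 are lower. Slc1a3 and Sox9 are lower with Neurog2 in WT and have overlapping intervals in Tcf4 cKO. Vim and Pax6 lie close together, with Pax6 higher with Neurog2 in WT.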

How the data were processed

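Droplet 3′ RNA libraries of 1 WT and 1 Tcf4 cKO sample were compared. The files are deposited UMI count matrices of genes by barcodes. Cell Ranger 7.1.0 is named per the file headers, and Cell Ranger 2.1.1 with build mm10 per the submitters' processing notes. A cell had 3350 or more UMIs, 500 or more genes and no more than 10% mitochondrial UMIs, and thinning drew 3350 UMIs per cell. CPM, ratios and log2 ratios were computed here from the counts (Python 3.11.15, scipy 1.17.1) by summing the UMIs of each population per library. Cells are not replicates, so no test was run. Levels have exact Poisson, shares Clopper-Pearson and ratios exact conditional binomial intervals at 95%. Log2 ratios add 5 CPM, and a gene needed 20 UMIs.

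Genes were named by rank on the ratio bound nearest 1, out of those with 50 UMIs or more, 50 CPM or more in the higher group and no less there than in free RNA. Genes of mitochondria, ribosomes and haemoglobin, Xist, Tsix and Y-linked genes could not be named. This gave 15 higher and 15 lower genes between genotypes, 12 and 12 for cycling over non-cycling glia (again outside the cycle lists), and 6 and 6 for each difference between populations. Tcf4, the rule's genes and any gene of the 37 lists could be named too. Members and lists were chosen with earlier results of these data known. Doublets were called with scrublet in scanpy 1.11.5, kept in the main values and removed in an alternative. Gene identifiers matched GENCODE vM21 for 99.8%. The ratio code was tested on simulated data. Alternatives changed the limits of the rule, the scaling, the pseudocount, the count filter, free RNA and the phase. Some genes are not reported here.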

Additional observations from a re-analysis of the deposited data

Results flagged for a closer look

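The genotype ratio of 8 genes pointed one way in the cycling Emx1+ cells and the other way in the cycling Eomes+ progenitors, with intervals on both sides that exclude 1. All 8 are among the 6 highest and 6 lowest genes named for the difference between these populations. That choice favoured opposite ratios, and the share over all genes was not counted. The difference of log2 ratios, cycling Emx1+ minus cycling Eomes+, was 0.893 for Ccnd2, 0.785 for Socs2, a cytokine signal inhibitor, and 0.689 for Cenpv, a centromere protein, all higher in Tcf4 cKO members and lower in Tcf4 cKO Eomes+ cells. It was -1.07 for Fabp7, -0.994 for Ptprz1, -0.901 for Ptn, -1.38 for Ednrb and -1.84 for 1110015O18Rik, all lower in members and higher in the Eomes+ cells. Under the rule after thinning, which left few members, these were 4.31 for Ptprz1, -0.170 for Fabp7, -0.547 for Ednrb and 0.0282 for Socs2. The value for 1110015O18Rik rests on 11 and 25 UMIs in the Eomes+ cells. Jun pointed in opposite ways in the cycling Emx1+ cells and the non-cycling Emx1+ glia, with a difference of 0.69, which was 0.56 without the cells that held other types' transcripts and 0.399 against non-cycling glia low in neuron transcripts, both chosen after the data had been seen. With 1 library per genotype the difference was not tested for any of these genes. Ptprz1, Ptn, Fabp7 and Ednrb are glial genes, and their level in the Eomes+ cells was below that in the members in both libraries. In the Eomes+ cells 22 of 26 radial glial genes were higher in Tcf4 cKO (median 0.31), against 5183 of all 10307 genes. Scrublet called 9.93% of WT and 16.9% of Tcf4 cKO Eomes+ cells doublets, against 5.07% and 6.53% of members. Whether doublets contribute was not tested.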

How the results depend on the processing

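No paired analysis was possible because each genotype has 1 library with no replicate number, and for the same reason no replicate could be left out. The count higher in Tcf4 cKO, 80, was 132 with Top2a and Mki67 at 6 or more UMIs, 293 with Emx1 at 2 or more, 139 with Slc1a3 at 3 or more, and 52 without the cells holding other types' transcripts. Higher and lower counts, 80 and 151, were 209 and 503 under the rule after thinning, 247 and 422 with each member thinned, 292 and 515 with a pseudocount of 1 CPM, and 377 and 611 in S-leading cells. For cycling over non-cycling cells in WT, the higher and lower counts were 1113 and 1254 under the rule after thinning, and the lower count was 1512 with a pseudocount of 1 CPM and 1471 in S-leading cells. In Tcf4 cKO the lower count was 661 with Pax6 required, 1890 with a pseudocount of 1 CPM, 1897 in S-leading cells and 622 against non-cycling glia low in neuron transcripts. The difference in the share of cells was -0.2834 points at 6700 UMIs and -0.1664 under the rule after thinning. The share of cells with more G2 and M than S UMIs kept its value within its interval under all its alternatives.

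Of 2260 values of genes and differences, 7 changed sign, as did 9 of 513 list medians. The median of the E and Id protein list was 0.0093 with Emx1 at 2 or more, 0.031 with Eomes at 0, 0.0513 with Slc1a3 at 3 or more and 0.0047 in S-leading cells, so no direction is given for it. The glutamatergic neuron median was -0.0382 without doublet calls and -0.444 under the rule after thinning. That rule also gave medians of 0.0207 for radial glia and 0.0124 for cholesterol synthesis, and values of -0.0939 for Pou3f2, 0.600 for Neurog2 in WT cycling over non-cycling cells, and 4.31 for Ptprz1 against Eomes+ cells. With Emx1 at 2 or more, Mt3 in Tcf4 cKO cycling over non-cycling cells was 0.0381 and the Egr1 difference -0.148. The pallial patterning median was -0.054 in S-leading cells, and against non-cycling glia low in neuron transcripts the differences of Ttc28 and Auts2 were 0.2375 and 0.180. The cause of these changes was not tested.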
